A study of Homo sapiens and Mus musculus with 10 samples.

Results

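The genes described here are 10 members of the BCL2 family that set whether a cell enters mitochondrial apoptosis. They were chosen by name from the human expression table: the BH3-only genes BCL2L11, BBC3, PMAIP1, BID and BAD, the effectors BAX and BAK1, and the antiapoptotic genes BCL2L1, MCL1 and BCL2A1. They are 10 of the 63140 gene rows in that table, and all 10 reached the level needed for testing. The libraries came from A375 cells, an established human melanoma line. A375 cells without peptide (Ctrl, n = 3) were compared with A375 cells that had received LL-37 at 80 µg/mL (LL-37, n = 3), both after 24 h and as biological triplicates per the series text. LL-37 is an antimicrobial peptide released from the precursor cathelicidin. A375 is a single cell line, and no second line or dose was included. Another 4 libraries, from mouse skin, were not analysed here.

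The BCL2 family acts at the outer membrane of the mitochondrion. Antiapoptotic members hold the effectors in check, BH3-only proteins bind the antiapoptotic members or the effectors and so release or trigger them, and active BAX and BAK1 open the membrane and let cytochrome c reach the caspases. Melanoma cells are known to lean on MCL1 and on BCL2A1, a target of the melanocyte factor MITF and of NF-kB. Many of these proteins are controlled after transcription, by cleavage, phosphorylation or rapid turnover, and a transcript level does not report that control.

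Expression was given as TPM, a measure corrected for transcript length and library total, so that levels of different genes can be set side by side. Read depth is unknown from TPM, which leaves counting error without an interval. Group levels are mean ± SD in TPM. In such bulk RNA, fewer cells with a transcript and less of it per cell cannot be told apart. Changes are LL-37 minus Ctrl on the log2(TPM + 1) scale, with their standard error (SE) and 95% interval, from limma fitted over all 14399 genes that reached 1 TPM in 3 or more libraries. A gene passed where its Benjamini-Hochberg adjusted p over all tested genes was under 0.05. This scale understates the change of low genes.

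The library LL-37 replicate 3 differed from the 5 others as a whole. In it 12991 genes reached 1 TPM, against 14304 to 14555 elsewhere, and its 50 most abundant genes took 39.8% of the total against 29.8% to 31.1%. Its correlation with any other library was 0.949 to 0.963, whereas the other 5 reached up to 0.992 with one another. Its deviation from the Ctrl mean also went with transcript length across 13887 genes (Pearson r = -0.51, against -0.20 to 0.11 in the others). The change of each member is therefore given with and without that library. The melanoma marker SOX10 measured 147 to 387 TPM over the 6 libraries, while the pigment genes MLANA and TYR were at or near 0. PMEL (0.12 to 1.25 TPM) and DCT (0.19 to 0.74 TPM) were low. Of the keratinocyte and leukocyte markers, KRT5, DSG3, PTPRC and CD3E were at or near 0 in all 6 libraries. Others were low but present: KRT14 measured 1.15 to 1.98 TPM, KRT15 1.77 to 2.53, DSC3 0.92 to 2.35 and LYZ 1.07 to 2.53. The summed level of 8 keratinocyte markers, of which 3 were at 0 throughout, was 30.9 to 32.1 TPM in Ctrl and 23.1 to 29.1 TPM with LL-37, most of it KRT10. That of 7 leukocyte markers, with 2 at 0 throughout, was 35.8 to 42.9 and 22.7 to 41.6 TPM, most of it CD68. Their part in the results below was not tested.

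No member passed the test in either direction. In the fit to all libraries no gene among the 14399 tested passed (0%; limma, smallest adjusted p = 0.197). Without LL-37 replicate 3, 17 genes passed (0.118%), and none of the 10 members was among them. At an unadjusted p under 0.05, 1 member (BID) was found among 363 genes (2.52%), and without LL-37 replicate 3 there were 2 (BID and MCL1) among 1298 genes (9.01%). All 3 LL-37 libraries lay above all 3 Ctrl libraries for 2 members, BID and BCL2A1, a pattern held by 2.13% of tested genes. PMAIP1 was the 1 member for which all LL-37 libraries lay below all Ctrl libraries, a pattern held by 10.3%. Without LL-37 replicate 3, 4 members lay wholly above Ctrl (BBC3, BID, MCL1 and BCL2A1) and 1 wholly below (PMAIP1), where 12.3% and 12.9% of tested genes did so.

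In untreated cells the transcripts covered a wide range of levels. BAX (165.5 ± 3.33 TPM) and MCL1 (156.4 ± 9.90 TPM) were the most abundant, and their libraries overlapped, so that no order between them was resolved. They were followed by BAD, BCL2L1, PMAIP1, BID, BAK1 and BBC3, and each of these lay apart from its neighbours in every Ctrl library. BCL2L11 (4.76 ± 0.298 TPM) and BCL2A1 (4.57 ± 0.497 TPM) were lowest and overlapped each other. The cells thus carried one abundant and one much lower effector transcript, and one dominant antiapoptotic transcript. Gene-level TPM add up all isoforms, of which the submitters list 15 for BCL2L1 and 8 for MCL1. Isoforms with opposite roles cannot be told apart here.

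**Figure D1:**
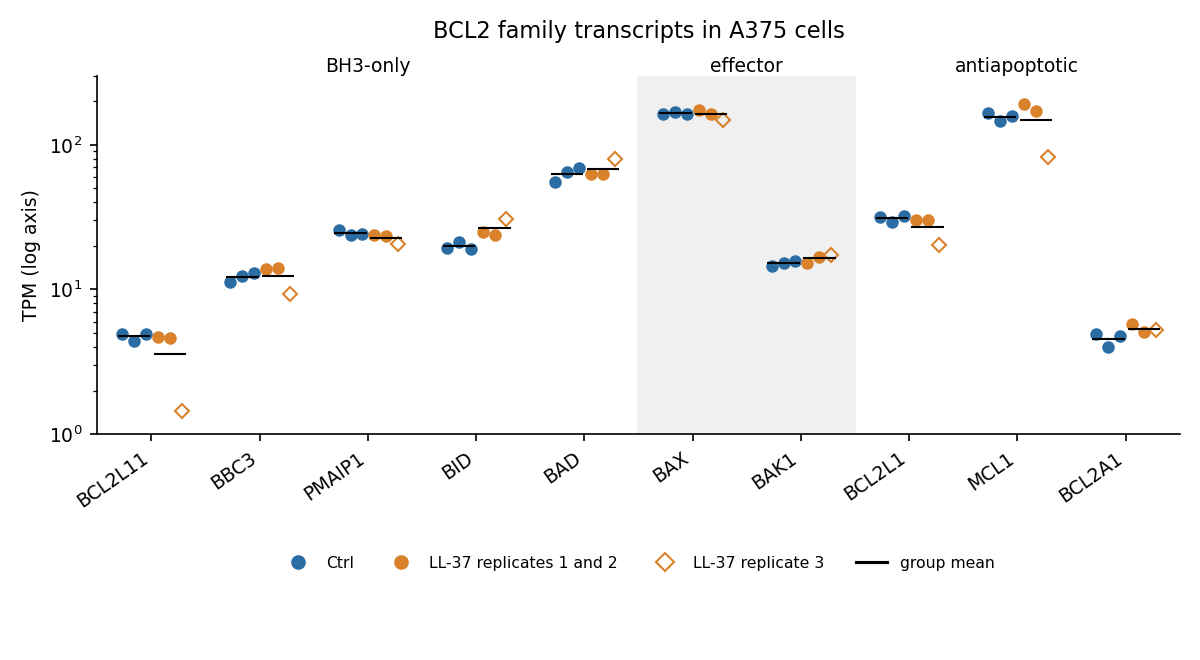
TPM (log axis) of the 10 members in each of the 6 A375 libraries, grouped by role, with Ctrl in blue, LL-37 in orange, LL-37 replicate 3 as open diamonds and group means as black bars. BAX and MCL1 were the most abundant and BCL2L11 and BCL2A1 the lowest, and LL-37 replicate 3 is the lowest library for BCL2L11, BBC3, PMAIP1, BAX, BCL2L1 and MCL1 and the highest for BID, BAD and BAK1.

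BID was the member with the largest positive difference. BID is cut by caspase-8 downstream of death receptors, and its truncated form activates BAX and BAK1. The gene (ENSG00000015475) lies at chr22:17734138-17774770 on the minus strand (GRCh38). It measured 19.4, 21.4 and 19.2 TPM in Ctrl replicates 1, 2 and 3 and 24.9, 23.8 and 30.7 TPM in the LL-37 replicates. Every LL-37 library was above every Ctrl library, and LL-37 replicate 3 was the highest of all. The change was 0.38 ± 0.16 (SE; interval 0.01 to 0.76) and did not pass (limma, unadjusted p = 0.0475, adjusted p = 0.739). Leaving out LL-37 replicate 3 gave 0.27 ± 0.09 (0.07 to 0.47; limma, unadjusted p = 0.0131, adjusted p = 0.352). The direction was the same under each scaling tried.

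BCL2A1 was the antiapoptotic gene with the same separation of groups. It encodes a short-lived protein that holds BH3-only proteins and BAK1. The gene (ENSG00000140379, chr15:79960889-79971446, minus strand) measured 4.96, 4.01 and 4.74 TPM in Ctrl and 5.76, 5.09 and 5.26 TPM with LL-37. The LL-37 libraries were all above the Ctrl libraries, but the gap between the nearest pair was smaller than the SD within either group, and LL-37 replicate 3 sat between the other treated libraries. Its change of 0.20 ± 0.17 (interval -0.22 to 0.61) did not pass (limma, adjusted p = 0.739) and was 0.21 ± 0.13 (-0.09 to 0.51) without LL-37 replicate 3 (limma, adjusted p = 0.740).

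Promoter sequence was read for both of these genes and for BAX. BAX shared the highest Ctrl levels with MCL1, and its change had the smallest error of any member. RefSeq promoter windows (GRCh38.p14) were found for 9 of the 10 members, with none used for MCL1. In the 250 bases before each start, 4 motifs were searched on both strands: the E-box CACGTG, the ATF-C/EBP composite TGATGCAA, the TATA box TATAAA and the GC box GGGCGG. They were chosen with the sequences and values in view. Among 35116 windows of the same length, 6.34% held the E-box, 0.772% the composite, 10.7% the TATA box and 42.6% the GC box. The sequences follow from 5′ to 3′ on the strand of each gene, with the matches in capitals, and no matches overlap in them. For BAX the stretch is the whole window, chr19:48954625-48954874 (plus strand); for BID, which has 5 windows, it is the 144 bases next to the start that the most GENCODE transcripts share (6 within a few bases), chr22:17774496-17774639 (minus strand), inside the annotated extent of the gene; for BCL2A1 it is the 30 bases around both matches, chr15:79971241-79971270 (minus strand), which lie inside the first exon of a longer annotated transcript.
BAX: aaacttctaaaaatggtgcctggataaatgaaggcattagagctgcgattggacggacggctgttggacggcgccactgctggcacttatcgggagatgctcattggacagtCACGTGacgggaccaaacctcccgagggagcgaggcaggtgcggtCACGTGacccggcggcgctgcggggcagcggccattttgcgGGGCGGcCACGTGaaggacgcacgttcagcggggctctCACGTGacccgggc
BID: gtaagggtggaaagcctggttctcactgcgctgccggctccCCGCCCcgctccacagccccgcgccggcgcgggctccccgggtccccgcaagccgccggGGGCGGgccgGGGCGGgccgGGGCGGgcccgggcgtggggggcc
BCL2A1: atatTATAAAgTGATGCAAacagaaattcc
The BAX window held 4 E-boxes, which lie 138, 93, 45 and 14 bases before the start at their first base, and 1 GC box. The annotated gene begins at chr19:48954815, inside this window. The E-boxes 45 and 14 bases before the start and the GC box therefore lie inside the annotated extent of the gene. The BID stretch held 4 GC boxes, 3 of them on the strand of the gene, written GGGCGG, and 1 on the opposite strand, written CCGCCC. The other BID windows held 0 to 4 GC boxes, and 2 of them held an E-box. In BCL2A1 a TATA box and the composite stand side by side, beginning 70 and 63 bases before the start. BBC3 held 1 E-box. Of the other motif matches among the members, most were GC boxes, which are common in such windows. These matches describe letters only, and no binding was measured.

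The other BH3-only genes showed no common direction. PMAIP1, which encodes NOXA and targets MCL1 for turnover, lies at chr18:59899948-59904306 on the plus strand (ENSG00000141682). It measured 25.8, 23.8 and 24.4 TPM in Ctrl and 23.7, 23.3 and 20.6 TPM with LL-37. All LL-37 libraries were below all Ctrl libraries, the nearest by less than 1 TPM, and the change of -0.13 ± 0.14 (interval -0.45 to 0.20; limma, adjusted p = 0.739) turned positive with median-of-ratios scaling (0.11) and quantile normalization (0.077). Without LL-37 replicate 3 it was -0.07 ± 0.08 (-0.25 to 0.11; limma, adjusted p = 0.883).

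BBC3, which encodes PUMA, a p53 target that binds all antiapoptotic members, lies at chr19:47220822-47232766 on the minus strand (ENSG00000105327). Its levels were 11.2, 12.3 and 12.9 TPM in Ctrl and 13.8, 14.1 and 9.28 TPM with LL-37. LL-37 replicates 1 and 2 were above every Ctrl library and replicate 3 below every one, so that the change was 0.01 ± 0.21 (interval -0.48 to 0.50; limma, adjusted p = 0.984) and turned negative without Ctrl replicate 1, LL-37 replicate 1 or LL-37 replicate 2 (lowest -0.089). It was 0.19 ± 0.10 (-0.04 to 0.41; limma, adjusted p = 0.651) without LL-37 replicate 3.

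BCL2L11 encodes BIM, which binds all antiapoptotic members and activates the effectors, and is held down by ERK signalling, which is high in BRAF-mutant melanoma lines. The gene (ENSG00000153094) lies at chr2:111119378-111168447 on the plus strand. Its levels were 4.95, 4.42 and 4.92 TPM in Ctrl and 4.66, 4.60 and 1.44 TPM with LL-37. LL-37 replicates 1 and 2 were within the Ctrl range, and LL-37 replicate 3 was at 30.2% of the Ctrl mean, the lowest share of any member. The change was -0.43 ± 0.35 (interval -1.27 to 0.40; limma, adjusted p = 0.739) with that library and -0.03 ± 0.12 (-0.30 to 0.24; limma, adjusted p = 0.973) without it.

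BAD, a BH3-only protein held inactive by phosphorylation and 14-3-3 binding, was the most abundant BH3-only transcript. The gene (ENSG00000002330) lies at chr11:64269830-64284704 on the minus strand. It measured 54.9, 64.9 and 69.2 TPM in Ctrl and 63.0, 63.0 and 79.3 TPM with LL-37. The groups overlapped, and LL-37 replicate 3 was the highest library. The change was 0.12 ± 0.15 (interval -0.25 to 0.48; limma, adjusted p = 0.748) and 0.01 ± 0.10 (-0.22 to 0.23; limma, adjusted p = 0.994) without LL-37 replicate 3.

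The effectors differed little between groups. BAX (ENSG00000087088, chr19:48954815-48961798, plus strand), which moves from the cytosol to the mitochondrion when activated, measured 164.5, 169 and 163 TPM in Ctrl and 174, 163 and 149 TPM with LL-37. The groups overlapped, and the change of -0.03 ± 0.10 (interval -0.28 to 0.22; limma, adjusted p = 0.883) turned to 0.21 with median-of-ratios scaling, 0.027 with quantile normalization and 0.0024 with length trends removed. Without LL-37 replicate 3 it was 0.03 ± 0.06 (-0.11 to 0.16; limma, adjusted p = 0.949), the narrowest interval of any member.

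BAK1 (ENSG00000030110, chr6:33572547-33580293, minus strand), which sits in the outer membrane and is held by MCL1 and BCL2L1, measured 14.6, 15.2 and 15.6 TPM in Ctrl and 15.3, 16.9 and 17.3 TPM with LL-37. LL-37 replicates 2 and 3 were above every Ctrl library, and LL-37 replicate 1 was inside the Ctrl range. Its change of 0.11 ± 0.15 (interval -0.23 to 0.46; limma, adjusted p = 0.746) was 0.08 ± 0.09 (-0.13 to 0.29; limma, adjusted p = 0.879) without LL-37 replicate 3.

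The direction of MCL1 depended on LL-37 replicate 3. MCL1 encodes a protein of very short half-life, and the gene (ENSG00000143384) lies at chr1:150574551-150579738 on the minus strand. It measured 165, 146 and 158 TPM in Ctrl and 192, 171 and 81.7 TPM with LL-37. LL-37 replicates 1 and 2 were above every Ctrl library, at 122.9% and 109.3% of the Ctrl mean, and LL-37 replicate 3 was far below them all, at 52.2%. The change was -0.17 ± 0.31 (interval -0.91 to 0.58; limma, adjusted p = 0.803) and became 0.077 with median-of-ratios scaling and 0.080 with length trends removed. Without LL-37 replicate 3 it was 0.21 ± 0.08 (0.03 to 0.39; limma, unadjusted p = 0.0248, adjusted p = 0.444), which did not pass.

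BCL2L1, which encodes BCL-XL, lies at chr20:31664452-31723989 on the minus strand (ENSG00000171552). It measured 31.6, 29.3 and 32.0 TPM in Ctrl and 30.4, 30.3 and 20.4 TPM with LL-37. LL-37 replicates 1 and 2 were inside the Ctrl range and LL-37 replicate 3 below it. The change of -0.21 ± 0.19 (interval -0.66 to 0.24; limma, adjusted p = 0.739) became 0.025 with median-of-ratios scaling, and was -0.03 ± 0.08 (-0.20 to 0.15; limma, adjusted p = 0.967) without LL-37 replicate 3.

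**Figure D2:**
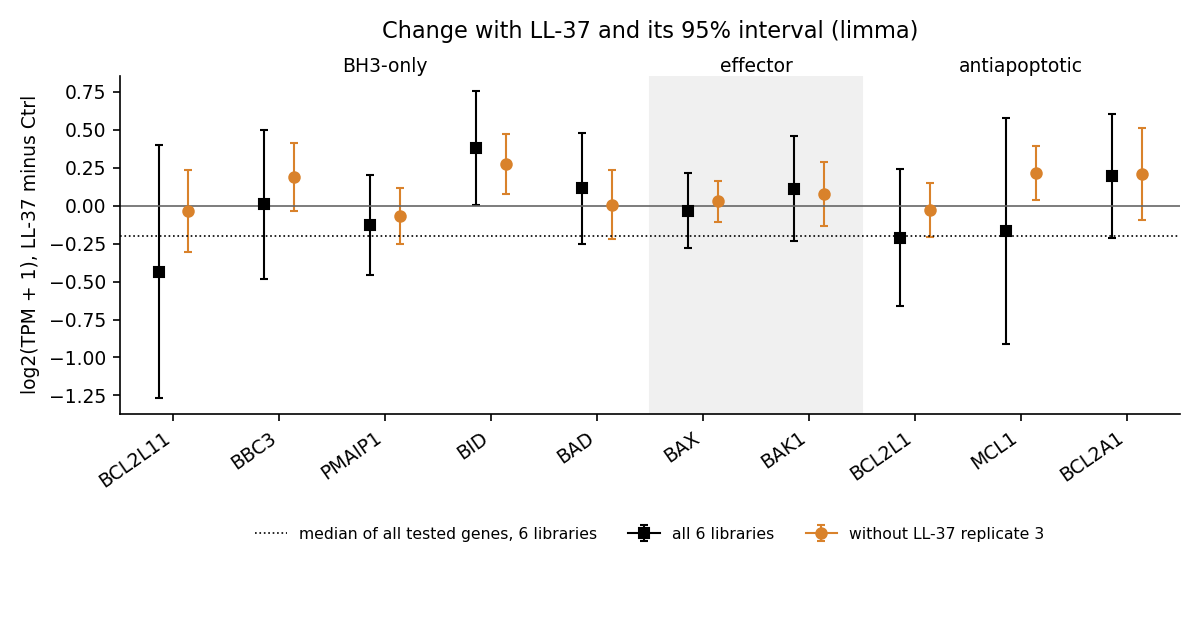
Change in log2(TPM + 1), LL-37 minus Ctrl, of each member with its 95% interval from limma, with all 6 libraries (black squares) and without LL-37 replicate 3 (orange circles); the dotted line is the median of all tested genes with 6 libraries (-0.20). With all libraries only the interval of BID lies above 0, from 0.01 to 0.76, and MCL1 goes from -0.17 to 0.21 when LL-37 replicate 3 is left out.

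The median change of all tested genes was -0.20, or -0.0039 in the absence of LL-37 replicate 3, and median-of-ratios scaling moved the former to 0.00. Measured against that median, BID lay 0.58 above it, BCL2A1 0.40, BAD 0.32, BAK1 0.31, BBC3 0.21 and BAX 0.17. PMAIP1 (0.07) and MCL1 (0.03) lay near it, as did BCL2L1 (-0.01), and BCL2L11 lay below (-0.23). By role, the median change was 0.01 for the 5 BH3-only genes, 0.04 for the 2 effectors and -0.17 for the 3 antiapoptotic genes, and without LL-37 replicate 3 these were 0.01, 0.05 and 0.21. Over all 10 members the median was -0.01, and 0.05 without that library.

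The members' departure in LL-37 replicate 3 from the other treated libraries was set against transcript length. The difference between LL-37 replicate 3 and the mean of LL-37 replicates 1 and 2 was -1.21 for BCL2L11 and -1.14 for MCL1, the members with the longest transcripts (5231 and 3932 bases in GENCODE 29). It was -0.55 for BCL2L1 (2610 bases) and -0.54 for BBC3 (1838 bases). BAD (1157 bases), BID (2495 bases) and BAK1 (2212 bases) lay on the other side, at 0.33, 0.32 and 0.10. BCL2A1, the shortest member (1033 bases), was at -0.04, and BAX (1358 bases) and PMAIP1 (1948 bases) were each at -0.18, so that the order by length was not kept among the shorter members. Across the 10 members, which share the same libraries, the difference had a Pearson r of -0.74 and a Spearman rho of -0.65 with log2 length, as a description. Across 13887 tested genes with a length, r was -0.48, and the median difference went from -0.10 under 1000 bases (1204 genes) to -0.92 between 4000 and 8000 bases (4477 genes) and -1.14 above 8000 bases (1066 genes). The part of length in the members' values was not tested. With length trends removed, the change of MCL1 was 0.080 and that of BAX 0.0024, and no member passed.

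**Figure D3:**
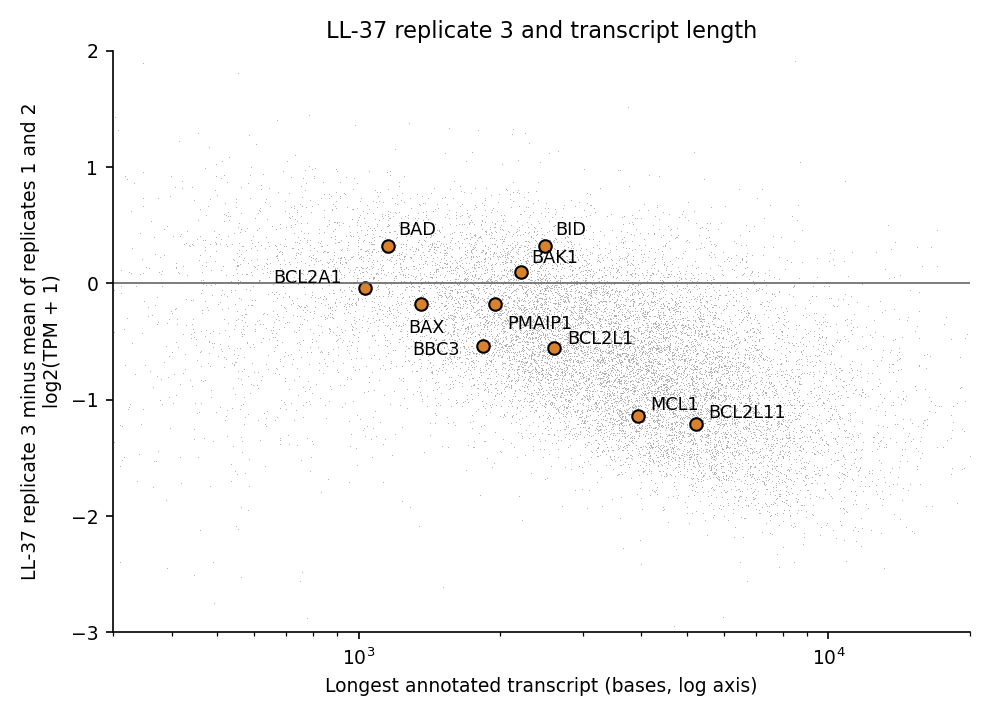
Difference in log2(TPM + 1) between LL-37 replicate 3 and the mean of LL-37 replicates 1 and 2 against the longest annotated transcript (bases, log axis) for tested genes with a length (grey, of which 89 of 13887 lie beyond the axes) and the 10 members (orange). MCL1 and BCL2L11, the longest members, lie at -1.14 and -1.21, whereas BAD and BID lie at 0.33 and 0.32.

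The balance between members was compared within each library, where the library total cancels. A departure that goes with transcript length, as in LL-37 replicate 3, does not cancel between members of unlike length. Its part in the ratios was not tested. BCL2L11 stood to MCL1 at 0.0299, 0.0303 and 0.0311 in Ctrl and at 0.0242, 0.0269 and 0.0176 with LL-37. This was the one of 10 ratios with no overlap between groups when all libraries were used, with a mean log2 difference of -0.43, or -0.25 if LL-37 replicate 3 was left out. No test was made of the ratios, and the share of other gene pairs with such separation was not computed. Among single tested genes, 2.13% lay wholly above Ctrl and 10.3% wholly below. These shares are not a like background, because a shift shared by all genes cancels in a ratio but not in a single gene. Several of the ratios share MCL1 and are not independent of each other.

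PMAIP1 stood to MCL1, the protein it binds, at 0.156, 0.163 and 0.154 in Ctrl and at 0.123, 0.136 and 0.252 with LL-37. BCL2L1 stood to MCL1 at 0.191, 0.201 and 0.202 in Ctrl and at 0.158, 0.177 and 0.249 with LL-37. In both cases LL-37 replicates 1 and 2 were below every Ctrl library and LL-37 replicate 3 was above every one. The mean log2 difference was 0.04 for PMAIP1 and -0.05 for BCL2L1. Leaving out LL-37 replicate 3 gave -0.29 for PMAIP1 and -0.24 for BCL2L1. In its absence these ratios, BCL2L11 to MCL1 and effectors to antiapoptotic members lay wholly below Ctrl, and all the other ratios overlapped. Each of those below has MCL1 in its denominator. Of single tested genes, 12.3% then lay wholly above Ctrl and 12.9% wholly below, and the share of other gene pairs was not computed.

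Summed over members, the antiapoptotic transcripts came to 202, 179 and 195 TPM in Ctrl and 228, 206 and 107 TPM with LL-37. The effectors came to 179, 184 and 178 TPM in Ctrl and 189.6, 180.2 and 166 TPM with LL-37, and the BH3-only transcripts to 116, 127 and 131 TPM and to 130.03, 129 and 141 TPM. MCL1 made up most of the antiapoptotic sum, and BAX most of the effector sum. The antiapoptotic sum covers only the listed members. It leaves out BCL2L2 (23.7 ± 2.96 TPM in Ctrl, 20.0 ± 8.40 TPM with LL-37) and BCL2 (1.28 ± 0.123 and 0.917 ± 0.599 TPM). The ratio of effectors to antiapoptotic members was 0.887, 1.03 and 0.916 in Ctrl and 0.830, 0.874 and 1.55 with LL-37, below Ctrl in LL-37 replicates 1 and 2 and above it in replicate 3. The ratio of BH3-only to antiapoptotic members was 0.576, 0.708 and 0.670 in Ctrl and 0.569, 0.625 and 1.32 with LL-37, with overlap between groups. Among effectors, BAX stood to BAK1 at 11.3, 11.1 and 10.4 in Ctrl and at 11.4, 9.68 and 8.61 with LL-37, also with overlap.

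**Figure D4:**
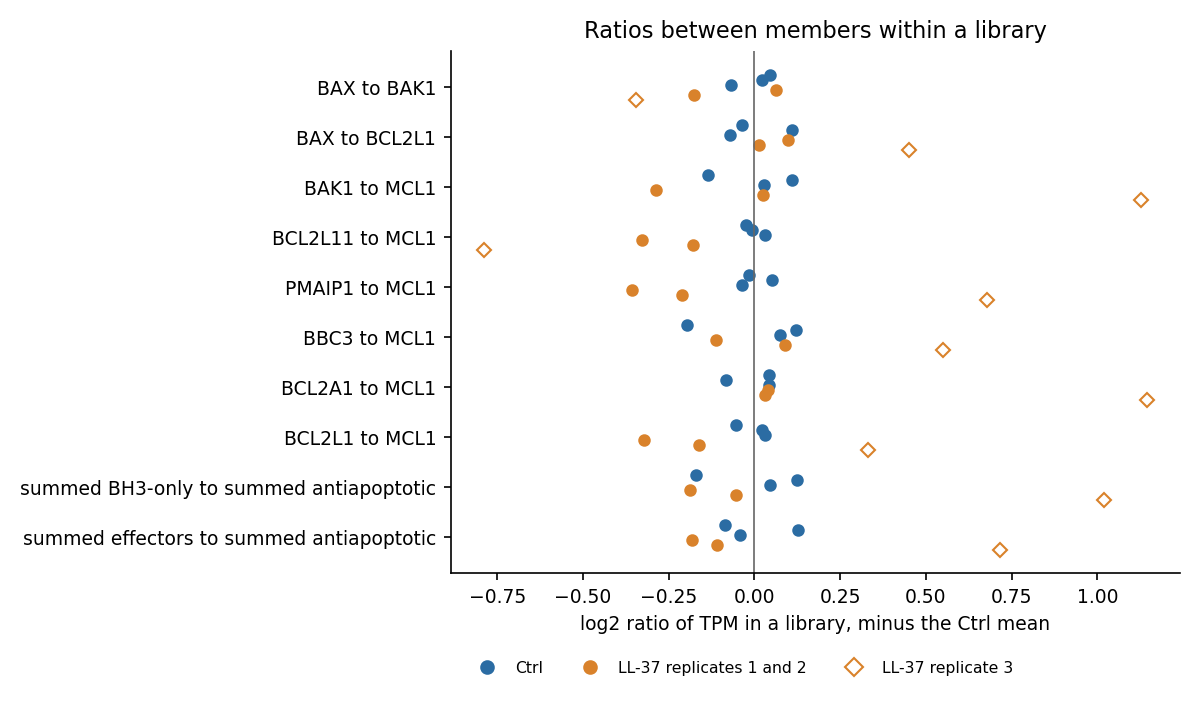
Log2 ratio of TPM between members in each library, minus the Ctrl mean of that ratio, with Ctrl in blue, LL-37 replicates 1 and 2 in orange and LL-37 replicate 3 as open diamonds. Only the ratio of BCL2L11 to MCL1 is lower in all 3 LL-37 libraries than in every Ctrl library, and LL-37 replicate 3 lies away from the others on both sides of 0.

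By the pattern over the 6 libraries, the genes most like the most abundant member of each role were found among 9963 genes of at least 5 TPM. For BAD these were ASL (Pearson r = 0.989), SIGIRR (0.983) and BABAM1 (0.982). For BAX they were INPP5E (0.992), PARP8 (0.992) and IRF2 (0.989), and for MCL1 RGMB, INSIG1 and CNP (each 0.999). These values describe 6 points, of which LL-37 replicate 3 is 1, and carry no test.

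The wider pathway was read from 7 lists, and no gene of any list passed in either fit (limma). As for the members, 2.13% of all tested genes lay wholly above Ctrl and 10.3% wholly below, and 12.3% and 12.9% did so without LL-37 replicate 3. Of the 13 other BCL2 family genes listed, 10 were tested. With a median change of -0.28 (0.01 without LL-37 replicate 3), 1 of the 10 lay wholly above Ctrl (2.13% of all genes) and 2 wholly below (10.3%), and these counts were the same without that library (12.3% and 12.9%). BMF, a BH3-only gene tied to the cytoskeleton, measured 9.76, 11.7 and 15.1 TPM in Ctrl and 7.56, 8.80 and 4.06 TPM with LL-37. Its libraries did not overlap, also without LL-37 replicate 3, with a change of -0.79 ± 0.30 that became -0.51 ± 0.17 without that library (limma, adjusted p = 0.739 and 0.377). The mitophagy receptors BNIP3L and BNIP3 were the most abundant of this list. BNIP3L measured 32.7 ± 3.01 TPM in Ctrl and 24.3 ± 3.79 TPM with LL-37 with no overlap in either fit, a change of -0.42 ± 0.17 that was -0.30 ± 0.09 in the absence of LL-37 replicate 3 (limma, adjusted p = 0.739 and 0.357). BNIP3 measured 81.4 ± 5.35 and 69.99 ± 7.36 TPM with overlap in both fits (-0.22 ± 0.13 and -0.20 ± 0.10).

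Downstream of the membrane, 10 of 10 apoptosome and caspase genes were tested, with a median change of -0.13 (-0.04 without LL-37 replicate 3). None lay wholly above Ctrl in either fit. Wholly below Ctrl lay 1 of the 10 (10.3% of all genes), and 2 without LL-37 replicate 3 (12.9%). CYCS, which encodes cytochrome c, measured 87.7 ± 7.46 and 79.7 ± 13.0 TPM and overlapped in both fits. DIABLO, an antagonist of the inhibitor of apoptosis proteins, measured 50.5 ± 0.727 and 50.2 ± 2.19 TPM with overlap, and lay narrowly below Ctrl without LL-37 replicate 3 (-0.04 ± 0.07; limma, adjusted p = 0.926). All 6 outer membrane channel and receptor genes were tested, with a median change of -0.09 (-0.07 without LL-37 replicate 3). Of these, 2 lay wholly below Ctrl (10.3% of all genes) and 3 without LL-37 replicate 3 (12.9%), and none wholly above. TOMM20, an import receptor, was among them in both fits, at 308 ± 9.17 and 277 ± 9.51 TPM, a change of -0.15 ± 0.09 that was -0.12 ± 0.05 without that library (limma, adjusted p = 0.739 and 0.552). VDAC1, the main outer membrane channel and the other abundant gene of that list, overlapped in both fits (209 ± 7.96 and 174 ± 43.5 TPM).

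Of 6 inhibitor of apoptosis genes, 5 were tested, with a median change of -0.11 (0.04 without LL-37 replicate 3), and 2 lay wholly above Ctrl in both fits (2.13% and 12.3% of all genes). BIRC3, an NF-kB target that encodes cIAP2, measured 2.64, 2.68 and 2.08 TPM in Ctrl and 5.41, 4.47 and 3.05 TPM with LL-37. All LL-37 libraries were above all Ctrl libraries, and LL-37 replicate 3 was the closest to them. Its change was 0.59 ± 0.22, and 0.78 ± 0.15 without LL-37 replicate 3 (limma, adjusted p = 0.739 and 0.111). The more abundant BIRC2 and BIRC6 overlapped in both fits.

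In the death receptor list, 9 of 10 genes were tested, with a median change of -0.22 (-0.01 without LL-37 replicate 3). All 9 overlapped with all libraries, and 1 lay wholly above Ctrl without LL-37 replicate 3 (12.3% of all genes). That gene was TNFRSF10B, the TRAIL receptor DR5, which measured 68.4, 62.0 and 68.2 TPM in Ctrl and 79.4, 72.4 and 31.4 TPM with LL-37. LL-37 replicates 1 and 2 were above every Ctrl library and LL-37 replicate 3 below every one, and the change turned from -0.22 ± 0.34 to 0.19 ± 0.08 without the latter (limma, adjusted p = 0.769 and 0.496). TNFRSF1A, the main TNF receptor, measured 84.7 ± 3.31 and 72.1 ± 14.6 TPM, overlapped in both fits and was lowest in LL-37 replicate 3.

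Of 12 transcription factors and regulators known to act on these members, 11 were tested, with a median change of -0.31 (0.05 without LL-37 replicate 3). Among them 2 lay wholly above Ctrl (2.13% of all genes) and 2 wholly below (10.3%), and without LL-37 replicate 3 these counts were 5 (12.3%) and 2 (12.9%). ATF4, the factor of the integrated stress response, measured 645, 644 and 633 TPM in Ctrl and 744, 722 and 764 TPM with LL-37. Every treated library exceeded every untreated one, with a change of 0.21 ± 0.08, or 0.19 ± 0.05 if LL-37 replicate 3 was left out (limma, adjusted p = 0.739 and 0.220). DDIT3, which encodes CHOP, measured 176, 181 and 199.9 TPM in Ctrl and 226, 233 and 168 TPM with LL-37. LL-37 replicates 1 and 2 were above every Ctrl library and LL-37 replicate 3 below them all, and the change was 0.16 ± 0.15 with that library and 0.31 ± 0.07 in its absence (limma, adjusted p = 0.739 and 0.176). STAT3, an activator of MCL1 and BCL2L1, measured 39.1, 37.7 and 43.5 TPM in Ctrl and 33.5, 33.5 and 12.3 TPM with LL-37. It lay below Ctrl in all treated libraries, with a change of -0.71 ± 0.38, or -0.25 ± 0.08 if LL-37 replicate 3 was left out (limma, adjusted p = 0.739 and 0.374). All 13 genes for protein partners and turnover were tested, with a median change of -0.36 (-0.02 without LL-37 replicate 3), and none lay apart in either fit. The most abundant were YWHAE, a 14-3-3 protein (376 ± 22.8 and 409 ± 70.5 TPM), and DYNLL1, which binds BMF and BCL2L11 (353 ± 10.9 and 367 ± 15.7 TPM).

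Some members share their position with another gene, and whether strand was used in counting is not given in the sources used here, although the library kit is a stranded one. BCL2L11 overlaps MIR4435-2HG on the opposite strand, which averaged 81.9 TPM, far above BCL2L11 itself. BAD overlaps GPR137 on the opposite strand (43.6 TPM). BCL2L1 overlaps the antisense transcript ABALON (0.558 TPM), and MCL1 overlaps ADAMTSL4-AS1 on the same strand (0.403 TPM), both far below the member. The BAK1 copies BAK1P1 (0.0783 TPM) and BAK1P2 (0 TPM) were low. These overlaps are of whole gene extents, and shared exons were not examined. If strand was not used in counting, the values of BCL2L11 and BAD may be less certain than those of the other members. Whether they are was not tested.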

How the data were processed

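Bulk RNA-seq libraries of A375 cells (n = 3 Ctrl, n = 3 LL-37) were prepared with a stranded mRNA kit, per the labels' protocols, which name cultured keratinocytes as the starting material although the sample labels name A375 cells. The authors deposited 1 table of TPM values for 63140 human gene identifiers. The submitters' processing notes name GRCh38. For the aligner and quantifier, no name is given in the sources used here. A gene name table matched 62541 identifiers.

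Genes that reached 1 TPM in 3 or more of the 6 libraries were tested, two-sided, on log2(TPM + 1) by the moderated test of limma 3.58.1 (R 4.3.3), with the intensity trend. The filter was taken over all 6 libraries also where a library was left out. Benjamini-Hochberg adjustment ran over all tested genes, with a threshold of 0.05. The test was checked on simulated data with independent normal noise per gene. That simulation had no library that differed as a whole and no length trend. It therefore does not cover the departure of LL-37 replicate 3. Longest transcripts and coordinates came from GENCODE 29 (GRCh38), and promoter sequences from RefSeq (GRCh38.p14).

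The members, the lists and the tests were chosen with earlier results of these data known. Named genes were all members and, per list, the 2 with the highest mean TPM, any past the threshold, and the non-overlapping gene with the largest absolute change, plus the 3 genes most like the most abundant member of each role. BCL2 and BCL2L2 were named as well, because the antiapoptotic sum leaves them out. Alternatives were other pseudocounts, filters and scalings, TPM without mitochondrially encoded genes, a replicate block, no intensity trend and each library left out. Length trend removal was added after seeing the data. The 4 mouse libraries were left out. The values of 1 pathway gene that the naming rule takes are not reported here.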

Additional observations from a re-analysis of the deposited data

How the results depend on the processing

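No member passed the threshold under any of 16 alternatives to the fit with all libraries, among which was leaving out LL-37 replicate 3. The smallest adjusted p among members in these was 0.352 to 0.921 (limma), with 0.352 in the fit without LL-37 replicate 3. No member passed under any of 15 alternatives to that fit either (limma, smallest adjusted p among members 0.220). BID kept its positive direction in all of these alternatives. Its change was 0.27 (without LL-37 replicate 3) to 0.62 in the former and 0.23 to 0.32 in the latter. BCL2L11 was not tested with a filter of 5 TPM. The count of genes past the threshold, 0 with all libraries, ranged from 0 to 17 over single libraries left out, with 17 without LL-37 replicate 3. Without that library the count of 17 became 6 with no filter, 65 with a filter of 5 TPM, 9 with median-of-ratios scaling, 9 with quantile normalization, 2 with the replicate block and 5 with no intensity trend, and it ranged from 9 to 42 over further libraries left out, with 42 without Ctrl replicate 1, 11 without Ctrl replicate 2 and 9 without Ctrl replicate 3. Where 1 LL-37 library remained, it was assumed to vary like the Ctrl libraries. The cause was not tested.

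Whether the replicate numbers pair the samples could not be settled. Deviations of same-numbered libraries from their group means correlated at 0.09, -0.20 and -0.17, and those of differently numbered libraries at -0.21 to 0.25. With so few libraries per group and LL-37 replicate 3 far from the others, such correlations cannot show or exclude pairing. The replicate block gave 0 genes with all libraries, as did the fit without a block. It gave no member in either fit (limma, smallest adjusted p among members 0.837 with all libraries).

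Directions turned as follows. With median-of-ratios scaling PMAIP1 was 0.11, BAX 0.21, BCL2L1 0.025 and MCL1 0.077, and the median of the members was 0.22. With quantile normalization PMAIP1 was 0.077 and BAX 0.027. With length trends removed, BAX was 0.0024 and MCL1 0.080. Over libraries left out, BBC3 ranged from -0.089 to 0.19, BAX from -0.085 to 0.028 and MCL1 from -0.40 to 0.21, and BAX and MCL1 were positive without LL-37 replicate 3. With that library absent throughout, BAD ranged from -0.087 to 0.077, negative without Ctrl replicate 1, and BAX from -0.019 to 0.075, negative without LL-37 replicate 1. TPM keep no depth, and the number of libraries limits the precision.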
